A study of Homo sapiens with 8 samples.

Results

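In a human cell line of non-small cell lung cancer (adenocarcinoma), the transcriptional response to rosiglitazone and carboplatin given together was compared with the sum of the responses to each drug alone. For every probe set the comparison took the log2 change from control with the combination and subtracted both single-drug changes. This departure from additivity is 0 where the combination changed a transcript by the sum of what each drug did. A positive value means a level above that sum and a negative value a level below it. All 8 of the 8 arrays of the series enter it, chosen by their titles, and 13338 of 22283 probe sets were tested. The groups, with 2 arrays each, were cells given both drugs, cells given rosiglitazone at 1 µM, cells given carboplatin at 10 µM, and cells in control medium, called DMSO or control in the design text, all for 24 h. The doses within the combination are not restated in the labels, and the labels do not name the line. Nor do they say that duplicate arrays stand for separate cultures, so the p-values cover array-to-array spread that may be technical.

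Rosiglitazone is a ligand of PPARγ, a nuclear receptor that binds DNA as a dimer with RXR and switches on genes of lipid uptake, storage and oxidation. Carboplatin forms platinum adducts and crosslinks on DNA, which activate checkpoint kinases and p53, and p53 in turn raises genes of cell cycle arrest, repair and death. The series title concerns synergy between these classes of drug, so the question here is whether any transcript responded to the pair differently from the sum of its responses to each. Additivity of log2 changes means that fold changes multiply.

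The median deposited signal of the arrays ran from 36.2 to 54.3, and the log2 values were quantile normalized. The median log2 brightness of the deposited arrays itself departed from additivity by -0.14. Its part in single genes was not tested beyond the alternative scalings and a fit with array brightness as a covariate. No departure passed in that fit, where the smallest limma adjusted p was 0.582. Correlations between the 2 arrays of a group (0.974 to 0.976) lay within the range between arrays of different groups (0.964 to 0.984). Of the 17 lung epithelial markers on the array 11 were above the filter on dim probe sets, with the keratin genes KRT18, KRT7 and KRT8 at mean log2 values of 12.31, 11.64 and 11.05. The lung lineage factor gene NKX2-1 (4.67), the airway factor gene FOXA1 (5.29) and the epithelial adhesion gene EPCAM (4.90) were below it, on a scale whose floor is 4. Of markers of other cell types, 3 of 10 for fibroblasts, 1 of 8 for leukocytes and 1 of 7 for endothelium were above it.

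No probe set departed from additivity past the threshold. With limma and Benjamini-Hochberg adjustment over 13338 probe sets, 0 (0%) had an adjusted p below 0.05, and the smallest adjusted p was 0.31. At an unadjusted limma p below 0.05 there were 796 probe sets (5.97%), of which 350 (2.62%) lay above the sum and 446 (3.34%) below it. By comparison, rosiglitazone alone changed 48 probe sets against control (0.36%), carboplatin alone 2 (0.015%) and the combination 30 (0.225%), with the same tool and threshold. These counts rest on few arrays, with 3 for rosiglitazone without its second array, 9 for the combination without its second array and 0 for carboplatin without either of its own. The middle 95% of departures ran from -0.82 to 0.70 on the log2 scale, with a median of 0.01. A departure combines 4 group means, so its median standard error was 0.29, against 0.20 for a difference between a pair of groups.

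The data bound the departures of most transcripts more than they bound their sign. The 95% interval lay within -1 and 1, that is within 2-fold in either direction, for 8694 probe sets (65.2%). It lay within -0.5 and 0.5 for 1010 (7.57%). Departures of 1 or more in size were measured for 253 probe sets (1.9%), 81 (0.607%) above the sum and 172 (1.29%) below it, and none passed. In all, 2447 probe sets (18.3%) kept the same sign over the 16 ways of taking 1 array from each group. In 2574 genes with at least 2 tested probe sets, the departures of the 2 brightest had the same sign in 55.1% of genes and correlated across genes at r = 0.12. The main effect of rosiglitazone, the mean of both rosiglitazone groups minus the mean of the other groups, gave 61% and r = 0.41 in the same genes. These probe sets share their arrays, so the values describe agreement between probes and not between cultures.

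**Figure D1:**
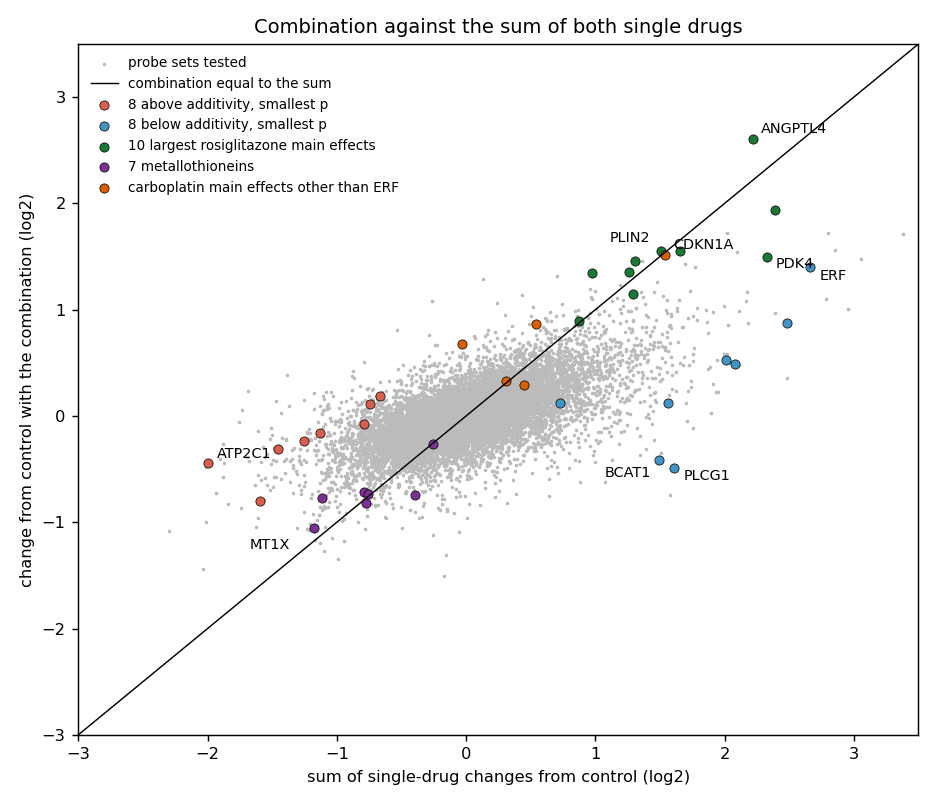
Each point is 1 of 13338 probe sets, with the sum of the rosiglitazone and carboplatin changes from control on the x axis and the change with the combination on the y axis, both as log2 differences of group means of 2 arrays. The line marks equality, both axes share the control arrays, and ERF (2.66 on the x axis, 1.40 on the y axis) and PLCG1 (1.61 and -0.49) lie below the line while PLIN2, CDKN1A and MT1X lie near it.

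The 8 genes of smallest p below the sum were PLCG1, ERF, PCOTH, DCBLD2, BCAT1, TPSG1, CHRNB2 and PCLAF. In each of them both single drugs gave a level above control, and the combination gave less than the sum. None passed the threshold, since each had an adjusted p of 0.82.

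ERF, which encodes an ETS-family transcriptional repressor, was the 1 gene of these 8 that each drug changed on its own past the threshold. Its log2 values were 8.23 and 8.21 with the combination, 7.80 and 8.09 with rosiglitazone alone, 8.41 and 8.30 with carboplatin alone, and 7.01 and 6.62 in control. Every drug-treated array was above both control arrays, and the combination arrays lay between those of rosiglitazone and carboplatin. ERF rose by 1.40 (2.64-fold, limma adjusted p = 0.0076) with the combination, by 1.12 with rosiglitazone alone (adjusted p = 0.028) and by 1.54 with carboplatin alone (adjusted p = 0.026). The call with carboplatin alone depended on the processing. It was lost with the deposited scaling, median scaling, no filter, no intensity trend or the replicate number as a block, where that comparison gave no calls. The deposited scaling, median scaling, no filter and no intensity trend also cut the number of calls with rosiglitazone alone. Whether ERF stayed among those calls was not examined. The sum of the single-drug changes was 2.66, or 6.33-fold. The departure was -1.26 ± 0.25 (SE), with a 95% interval of -1.81 to -0.72 and a limma adjusted p of 0.82. The combination differed from carboplatin alone by -0.14 and from rosiglitazone alone by 0.27. Across 18 alternative settings on the log2 scale the departure of ERF ran from -1.45 to -0.99.

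PLCG1, which encodes phospholipase C gamma 1, an enzyme that cleaves membrane phosphoinositides after receptor activation, had the smallest p of any named gene. It stood at 5.38 and 5.57 with the combination, 6.63 and 6.74 with rosiglitazone alone, 7.09 and 6.62 with carboplatin alone, and 5.58 and 6.34 in control. Both single-drug groups were above both other groups, and the combination and control arrays did not overlap either, though 5.57 and 5.58 nearly met. The departure was -2.10 ± 0.39 (interval -2.95 to -1.25, limma adjusted p = 0.82). A second PLCG1 probe set departed by -0.53. With the deposited scaling in place of quantile normalization PLCG1 passed, at -2.25 with a limma adjusted p of 0.024. In that setting 3 probe sets passed, all below the sum, the others being CIITA (-2.15), a regulator of antigen presentation genes, and a probe set with no single gene symbol.

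DCBLD2, a transmembrane receptor gene, and PCLAF, which encodes a partner of the replication clamp PCNA, were the brighter genes of the group. DCBLD2 had log2 values of 8.81 and 9.24 with the combination, 10.06 and 9.72 with rosiglitazone alone, 9.17 and 9.78 with carboplatin alone, and 9.12 and 8.69 in control. The rosiglitazone arrays lay above those of the combination and of control, whose ranges overlapped each other. Its departure was -1.44 ± 0.32 (interval -2.14 to -0.73). PCLAF stood at 11.02 and 11.17 with the combination, 11.42 and 11.50 with rosiglitazone alone, 11.14 and 11.27 with carboplatin alone, and 11.07 and 10.87 in control. Only the rosiglitazone arrays stood clear of the rest, and the departure of -0.60 ± 0.15 (interval -0.93 to -0.26) was the smallest of the 8. A second PCLAF probe set was at -0.12.

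The remaining genes below the sum were dim, with means of 5.49 to 5.92 against a filter at 5.38. BCAT1, the cytosolic branched-chain aminotransferase gene, stood at 4.44 and 5.23 with the combination, 6.26 and 5.89 with rosiglitazone alone, 5.89 and 5.94 with carboplatin alone, and 5.44 and 5.06 in control. As in PLCG1, both single-drug groups lay above the combination and above control, and here the combination and control arrays overlapped. The departure was -1.90 ± 0.44. CHRNB2, a nicotinic acetylcholine receptor subunit gene, departed by -1.61 ± 0.39, PCOTH by -1.58 ± 0.34 and TPSG1, a tryptase gene, by -1.48 ± 0.35. For these dim genes the size depended on the constant added before the log. BCAT1 ran from -3.07 with a pseudocount of 1 to -0.91 with 64, and PCOTH from -2.36 to -0.79 in the same settings.

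The 8 genes of smallest p above the sum were ATP2C1, DNM1, CCDC85B, ETV4, CDIPT, RRAS, NXN and MAPK3. Here both single drugs gave a level below control and the combination lay above the sum. The adjusted p was 0.82 for each.

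ATP2C1 encodes the calcium and manganese pump of the Golgi. Its log2 values were 6.49 and 6.996 with the combination, 6.23 and 6.67 with rosiglitazone alone, 5.87 and 5.97 with carboplatin alone, and 7.19 and 7.18 in control. All treated arrays were below control, those with carboplatin alone the lowest, and the combination overlapped with rosiglitazone. The combination was at -0.44 and the single-drug changes summed to -1.997, a departure of 1.56 ± 0.32 (interval 0.85 to 2.26). Its 2 other tested probe sets were at 0.33 and 0.25.

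ETV4, an ETS-family activator gene, and NXN, which encodes the thioredoxin-like protein nucleoredoxin, were lowest with rosiglitazone alone. ETV4 stood at 6.23 and 6.30 with the combination, 5.35 and 5.62 with rosiglitazone alone, 6.17 and 6.24 with carboplatin alone, and 6.43 and 6.72 in control. The combination arrays met those of carboplatin and lay above those of rosiglitazone, and the departure was 1.15 ± 0.30. NXN stood at 7.65 and 7.54 with the combination, 7.05 and 7.19 with rosiglitazone alone, 8.10 and 8.05 with carboplatin alone, and 8.28 and 8.51 in control. The 4 groups did not overlap. NXN fell by 1.28 with rosiglitazone alone (limma adjusted p = 0.0074), and its change with the combination, -0.80, did not pass (adjusted p = 0.072). The departure of NXN was 0.79 ± 0.22 (interval 0.31 to 1.27).

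MAPK3, which encodes the kinase ERK1, stood at 6.97 on both arrays with the combination, 6.51 and 6.77 with rosiglitazone alone, 6.29 and 6.73 with carboplatin alone, and 7.32 and 7.08 in control. The combination lay between control and both single drugs, with a departure of 1.02 ± 0.29. RRAS, a small GTPase gene of the Ras family, departed by 0.96 ± 0.26, and CDIPT, the phosphatidylinositol synthase gene, by 0.71 ± 0.19. CCDC85B departed by 0.86 ± 0.22 and DNM1, which encodes the membrane-scission GTPase dynamin 1, by 0.85 ± 0.21. In CCDC85B and DNM1 the combination arrays lay above every single-drug array, but a second, dimmer probe set had the opposite sign, at -0.29 for CCDC85B and -0.58 for DNM1.

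All 16 of these genes shared a shape that their selection favours. In 16 of 16 both single-drug changes had the sign opposite to the departure, as in 405 of the 419 genes with an unadjusted limma p below 0.05 (96.7%) and in 4894 of all 8030 genes (60.9%). The 2 control arrays enter both single-drug changes, so an error in control moves those changes together and moves the departure the other way. The sign held over all 16 choices of 1 array per group in 16 of 16 genes, against 18.3% of probe sets, which follows from choosing them by p and is not a separate result.

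**Figure D2:**
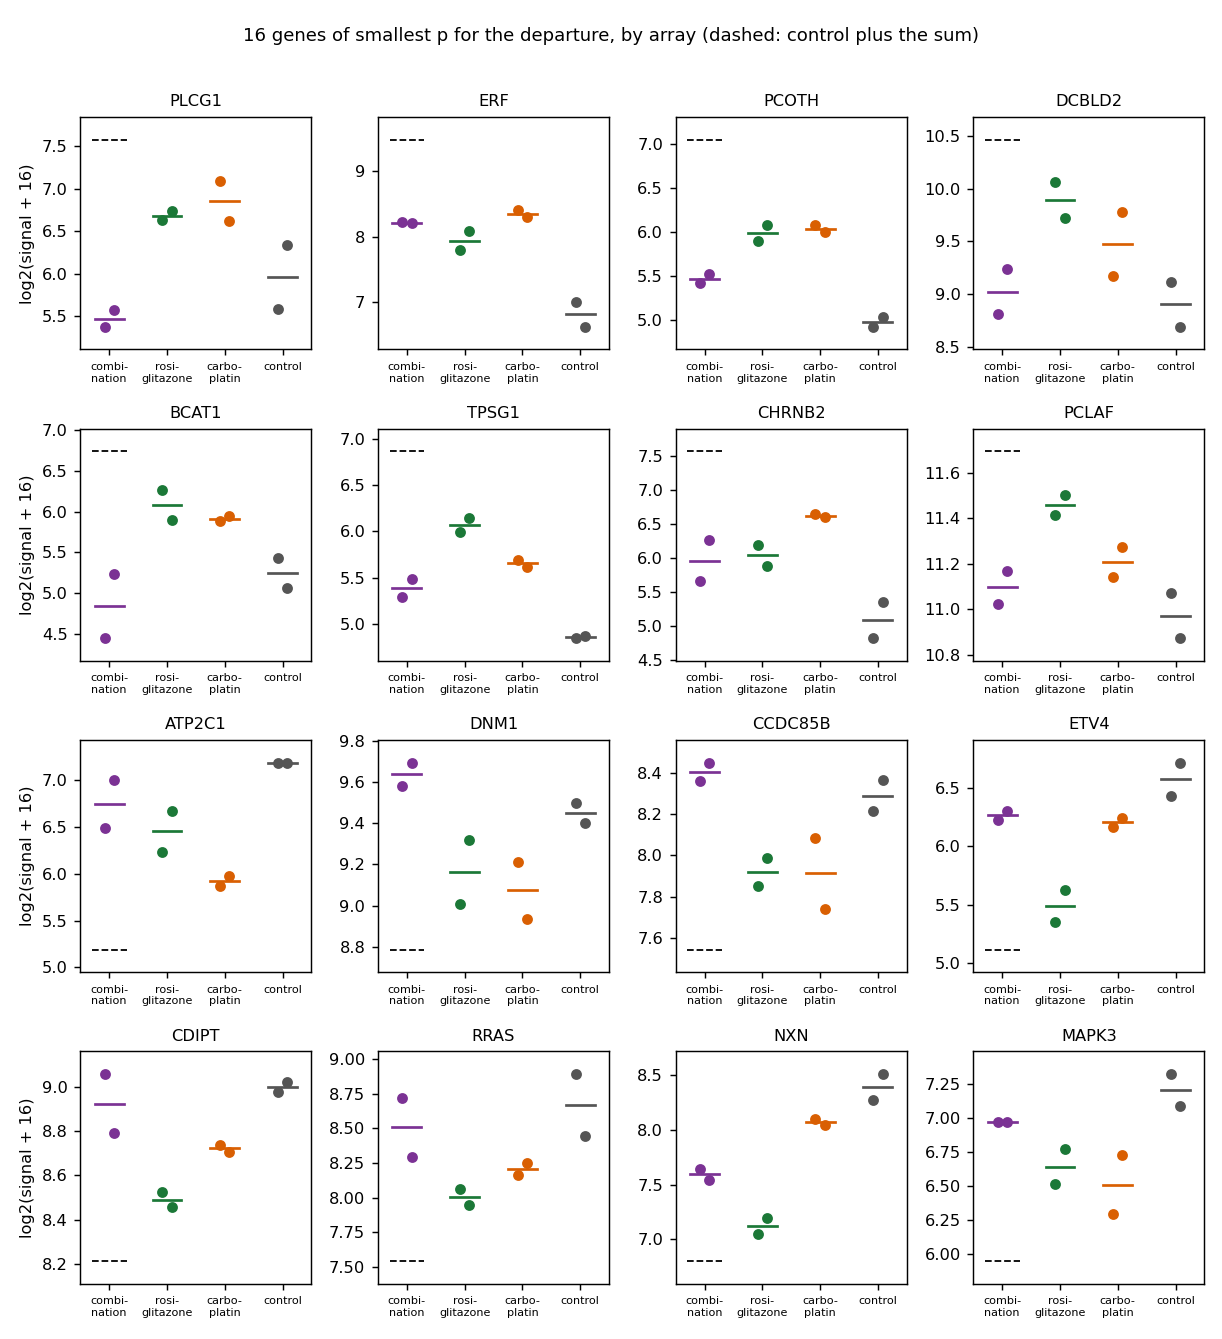
Quantile normalized log2(signal + 16) on each array (points) with the mean of the 2 arrays (bar) for the 16 genes, in the order combination, rosiglitazone, carboplatin, control, and with a scale of its own in each panel. The dashed line is the level that control plus both single-drug changes would give, above the combination arrays in the first 8 panels and below them in the last 8.

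Whether the strongest drug responses added up was examined in genes chosen by the main effect of each drug, a contrast that is orthogonal to the departure in this balanced design. The rosiglitazone main effect passed for 118 probe sets (0.885%), 89 (0.667%) higher and 29 (0.217%) lower with the drug. Among the 118, the departure ran toward a smaller rosiglitazone effect in the presence of carboplatin for 72 (61%), against 55.8% of all probe sets. The 95% interval lay within -1 and 1 for 98 (83.1%, against 65.2% of all) and excluded 0 for 13 (11%, against 5.97%), 11 of those toward a smaller effect. The share toward a smaller effect among all probe sets whose interval excludes 0 was not computed, so the 11 have no background to be read against. The main effect and the departure are tested against the same residual spread, and calls favour probe sets with a small spread. The median rosiglitazone change of the 89 higher probe sets was 0.73 with carboplatin present and 0.77 without it. For the 29 lower probe sets it was -0.64 with carboplatin present and -0.81 without it.

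ANGPTL4, a secreted inhibitor of lipoprotein lipase and a PPAR target, had the largest rosiglitazone main effect of the 10 genes named for it. Its log2 values were 9.65 and 8.91 with the combination, 9.24 and 9.34 with rosiglitazone alone, 6.18 and 6.36 with carboplatin alone, and 6.48 and 6.87 in control. The 4 arrays with rosiglitazone were all above the 4 without, and the combination arrays enclosed those of rosiglitazone alone. The combination was 6.08-fold above control and the sum of single-drug changes gave 4.65-fold. The departure was 0.39 ± 0.33 (interval -0.33 to 1.10), and it was 0.02 without the first combination array and 0.75 without the second.

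PLIN2, the lipid droplet coat protein gene, gave the narrowest interval of the group. It stood at 10.92 and 10.67 with the combination, 10.90 and 10.92 with rosiglitazone alone, 9.12 and 9.05 with carboplatin alone, and 9.21 and 9.28 in control. The combination overlapped with rosiglitazone alone, and the departure was 0.05 ± 0.17 (interval -0.32 to 0.41). The GTPase-activating protein gene DLC1 departed by -0.10 ± 0.19 (interval -0.51 to 0.31), the fatty acid 2-hydroxylase gene FA2H by 0.16 ± 0.20 (interval -0.28 to 0.59) and the calcium pump gene ATP2B4 by -0.14 ± 0.20 (interval -0.58 to 0.31). In these 4 genes a departure of 2-fold lay outside the interval in either direction, and the same held for the zinc finger factor gene KLF4 (0.02 ± 0.28) and for LPCAT3, a lysophospholipid acyltransferase gene (0.09 ± 0.40, interval -0.79 to 0.97). These intervals are each from the brightest probe set of a gene. Second probe sets departed by -0.48 for KLF4 and by 0.14 and -0.66 for ATP2B4. The second LPCAT3 probe set, at 6.63 about as bright as the first at 6.64, differed from control by -0.12 with rosiglitazone alone, against 1.13 for the first.

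PDK4, the kinase that holds back pyruvate dehydrogenase, had the widest interval of the group. Its values were 6.22 and 7.06 with the combination, 7.28 and 7.34 with rosiglitazone alone, 4.92 and 5.69 with carboplatin alone, and 5.14 and 5.15 in control. Both combination arrays were below both rosiglitazone arrays and above all others. The departure was -0.83 ± 0.44 (interval -1.81 to 0.14), and it was -1.24 without the second combination array and -0.41 without the first. AQP3, a water and glycerol channel gene, departed by -0.45 ± 0.30 (interval -1.11 to 0.20) and the apolipoprotein gene APOC1 by 0.36 ± 0.32 (interval -0.34 to 1.07), with a second APOC1 probe set at -0.56. A second tested AQP3 probe set, at a mean of 5.97 against 6.03 for the first, departed by -0.07. It differed from control by 0.69 with rosiglitazone alone, against 1.87 for the first.

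The carboplatin main effect passed for 4 probe sets (0.03%), all higher. Of these, 3 were in named genes and the other had no single gene symbol. Their departures ran from -1.26 for ERF to 0.708 for the probe set with no single symbol. The interval excluded 0 before adjustment for 2 of the 4, ERF and that probe set, and neither passed as a departure. CDKN1A, which encodes the p53-induced cell cycle inhibitor p21, stood at 9.34 and 8.75 with the combination, 7.48 and 7.55 with rosiglitazone alone, 9.10 and 9.06 with carboplatin alone, and 7.43 and 7.62 in control. The 4 arrays with carboplatin were all above the 4 without, and rosiglitazone alone overlapped with control. The combination was 2.86-fold above control and the sum gave 2.90-fold. The departure was -0.02 ± 0.26 (interval -0.59 to 0.56), and it was -0.31 without the first combination array and 0.27 without the second.

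GDF15, a stress-induced cytokine gene of the TGF-β family and a p53 target, was lower with rosiglitazone alone than in control by a change of -0.53 that did not pass. It stood at 8.11 and 8.17 with the combination, 6.61 and 6.89 with rosiglitazone alone, 8.25 and 8.44 with carboplatin alone, and 7.26 and 7.29 in control. The combination arrays lay just under those of carboplatin. The departure of 0.32 ± 0.23 (interval -0.18 to 0.83) did not pass. ERF, described above, was the remaining called gene.

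DDB2, which recognises damaged DNA in nucleotide excision repair and is induced by p53, had the smallest p of the 27 p53 targets tested. Its values were 9.60 and 9.16 with the combination, 8.41 and 8.26 with rosiglitazone alone, 8.90 and 9.19 with carboplatin alone, and 8.69 and 8.73 in control. Rosiglitazone alone was below every other array, and the combination overlapped with carboplatin. The combination was at 0.68, while the single-drug changes nearly cancelled at a sum of -0.03. The departure was 0.71 ± 0.24 (interval 0.19 to 1.23, limma adjusted p = 0.82). It was 0.49 without the first combination array and 0.92 without the second. The p53-induced ribosomal protein paralog gene RPS27L departed by 0.02 ± 0.18 (interval -0.38 to 0.42) and POMZP3 by -0.16 ± 0.19 (interval -0.57 to 0.26). DDB2, RPS27L and POMZP3 did not pass the carboplatin main effect (limma adjusted p of 0.25, 0.47 and 0.44).

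**Figure D3:**
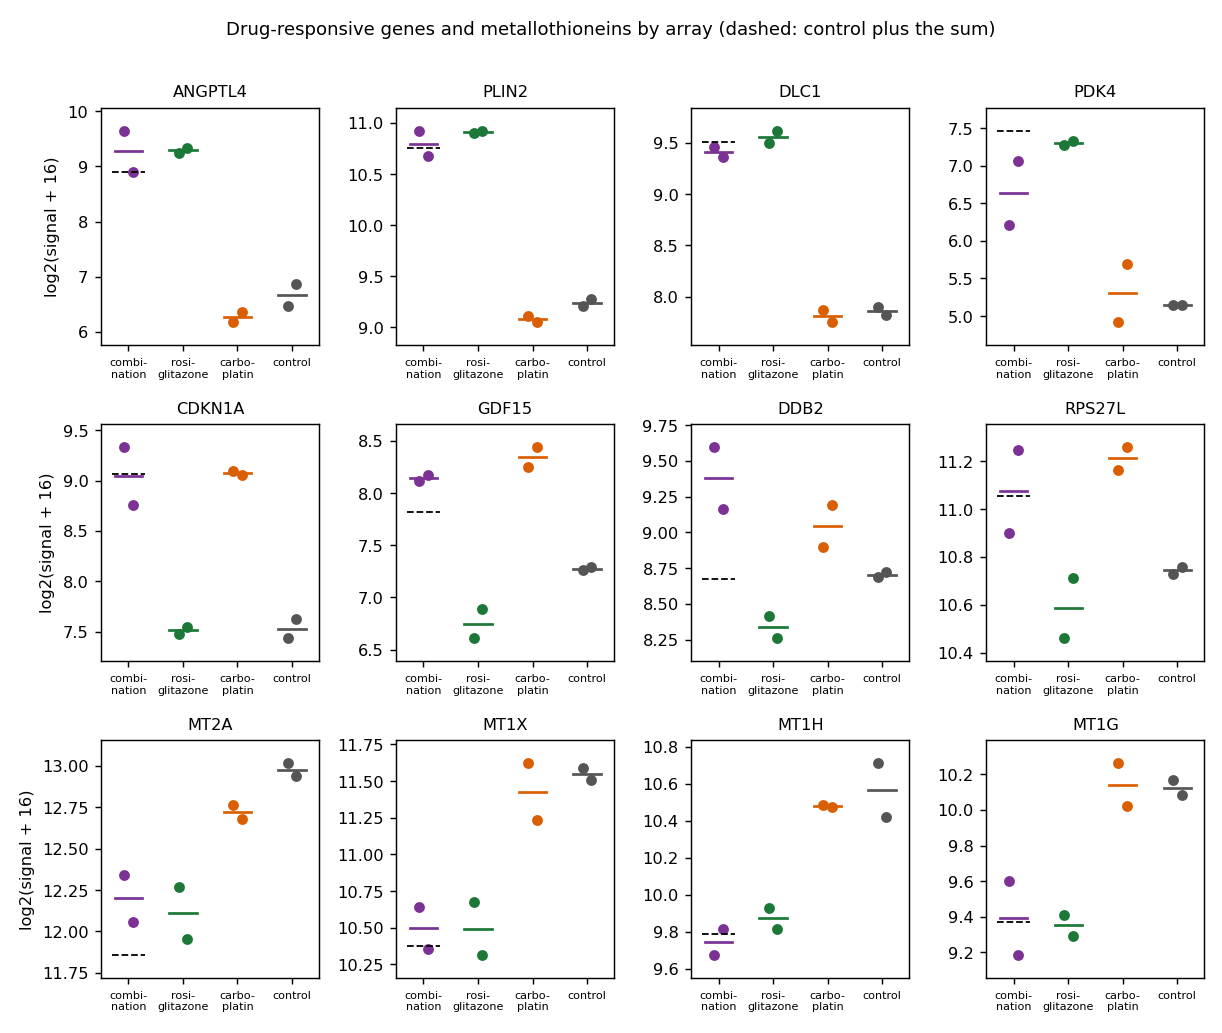
Quantile normalized log2(signal + 16) on each array (points) with group means (bars) for rosiglitazone-responsive genes (top row), genes named for carboplatin (middle row) and metallothioneins (bottom row), with a scale of its own in each panel. The dashed line is control plus both single-drug changes, and it runs close to the combination in PLIN2, CDKN1A, RPS27L, MT1X, MT1H and MT1G. DDB2 and RPS27L did not pass the carboplatin main effect.

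Metallothioneins, small proteins rich in cysteine, hold zinc and copper and can also bind platinum drugs. Their genes are switched on by the zinc-sensing factor MTF1 through metal response elements near the transcription start. The paper of this study drew attention to this family using these arrays, so the family is not an independent choice. The promoters of MT1X, MT2A and MT1H, the members that passed as lower with rosiglitazone alone than in control, are shown. Capitals mark matches on either strand to the search pattern TGCNCNC, in which N is any base. The promoters span 250 bases before to 50 after the start in RefSeq on GRCh38.p14. Promoters of 5 of the 11 listed family members were matched by symbol.
MT1X promoter, chr16:56682220-56682519, plus strand: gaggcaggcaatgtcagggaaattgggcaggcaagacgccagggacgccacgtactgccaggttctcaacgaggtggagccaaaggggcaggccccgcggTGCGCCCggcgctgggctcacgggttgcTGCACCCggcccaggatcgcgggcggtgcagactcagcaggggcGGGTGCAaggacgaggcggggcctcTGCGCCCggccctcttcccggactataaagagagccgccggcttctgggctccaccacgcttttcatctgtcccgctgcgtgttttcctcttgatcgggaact
MT2A promoter, chr16:56608334-56608633, plus strand: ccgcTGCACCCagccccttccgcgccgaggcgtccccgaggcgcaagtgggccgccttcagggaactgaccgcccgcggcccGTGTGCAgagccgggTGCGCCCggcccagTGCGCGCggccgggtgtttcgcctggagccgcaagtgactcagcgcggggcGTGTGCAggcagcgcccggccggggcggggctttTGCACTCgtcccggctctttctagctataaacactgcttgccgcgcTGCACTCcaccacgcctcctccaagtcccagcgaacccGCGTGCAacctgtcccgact
MT1H promoter, chr16:56669564-56669863, plus strand: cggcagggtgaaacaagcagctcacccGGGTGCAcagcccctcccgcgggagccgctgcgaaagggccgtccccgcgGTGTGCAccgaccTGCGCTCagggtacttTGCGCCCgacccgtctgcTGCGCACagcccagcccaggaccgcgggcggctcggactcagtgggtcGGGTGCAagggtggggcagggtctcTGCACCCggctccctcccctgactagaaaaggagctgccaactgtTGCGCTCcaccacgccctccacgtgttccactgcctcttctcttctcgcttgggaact
The search pattern matched 4 times in the MT1X window, 8 times in MT2A and 8 times in MT1H, counting overlapping matches. Of 35116 promoter windows of this length 55.9% held at least 1 match and 2.94% at least 4. A match describes the letters and is not a measured binding site.

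The metallothioneins gave no departure past the threshold, and the combination was close to rosiglitazone alone. MT1X stood at 10.64 and 10.35 with the combination, 10.67 and 10.32 with rosiglitazone alone, 11.62 and 11.24 with carboplatin alone, and 11.59 and 11.51 in control. The 4 arrays with rosiglitazone were all below the 4 without. The combination was at 0.482-fold of control and the sum gave 0.442-fold, a departure of 0.12 ± 0.22 (interval -0.36 to 0.61). MT2A, the brightest member, stood at 12.34 and 12.06 with the combination, 12.27 and 11.96 with rosiglitazone alone, 12.76 and 12.68 with carboplatin alone, and 13.02 and 12.94 in control. The same 4 arrays were the lowest, and carboplatin alone lay just below control. Its departure of 0.34 ± 0.17 (interval -0.03 to 0.71, limma adjusted p = 0.83) was the highest among the brightest probe sets of the 7 members and lay above the sum, that is toward a smaller fall. A second, dimmer MT1E probe set was at 0.45.

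MT1H departed by -0.04 ± 0.17 (interval -0.43 to 0.34), MT1G by 0.03 ± 0.21, MT1F by 0.07 ± 0.25 and MT1E by -0.01 ± 0.27. The dim member MT3, a brain-enriched form, was at -0.35 ± 0.48 (interval -1.41 to 0.71). Of the 7 members tested 4 were above the sum and 3 below. Departures beyond 2-fold lay outside the interval for the 6 members other than MT3. The family median was 0.03, but it ranged from -0.14 without the first combination array to 0.26 without the second. Apart from MT3 the tested probe sets bear a suffix (x_at) given where probes may hybridise to more than 1 transcript, so these values are not independent of each other.

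**Figure D4:**
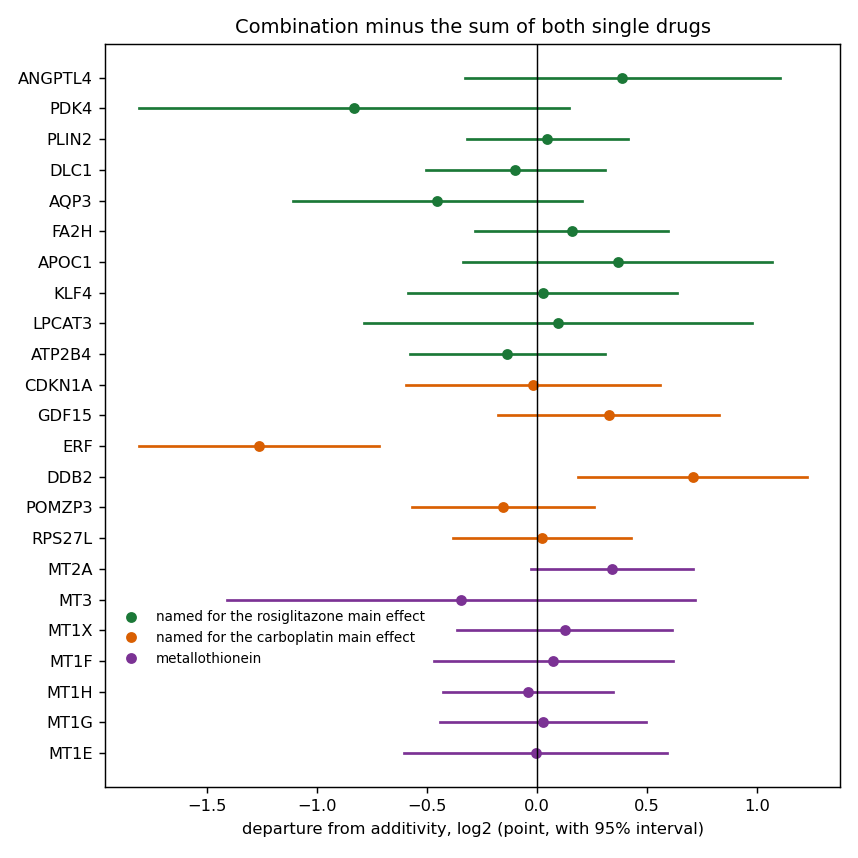
Departure from additivity on the log2 scale (points) with its 95% interval (lines) for 10 genes named by the rosiglitazone main effect, 6 by the carboplatin main effect and 7 metallothioneins, 2 arrays per group. The intervals of ERF, below the sum, and DDB2, above it, exclude 0 before adjustment, and neither passed over all probe sets. DDB2, RPS27L and POMZP3 were added by smallest p and did not pass the carboplatin main effect.

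Gene lists were described by their counts and medians beside those of all 8030 genes, of which 4436 (55.2%) lay above the sum with a median departure of 0.04 and 419 (5.22%) had an unadjusted limma p below 0.05. None of the 434 tested genes on the 22 lists passed over all probe sets. For each list the 3 members of smallest p are given, each by its brightest probe set. In some of them a second tested probe set had the opposite sign. Among these were PMAIP1 (0.12), CXCL8 (-0.37), ABCC3 (-0.25), STIP1 (-0.19), B2M (0.03) and CCNA2 (0.05). The other probe sets were at -0.13 and 0.54 for NQO1, -0.14 and 0.06 for HADHA and 0.01 and -0.55 for CDK1. In other genes the sign was the same, as in SREBF2 (-0.56), ICAM1 (-0.45), CXCL5 (-0.38) and UCP2 (0.01). Leaving out 1 array moved the departure by over 1.5 times in 35 of the 56 genes named for a list and turned its sign in 5.

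The lists closest to the drugs' targets had median departures near that of all genes. Of 24 PPAR targets 16 lay above the sum, with a median departure of 0.05. Their median change was 0.50 with the combination and 0.43 as the sum. The mitochondrial uncoupler gene UCP2 (0.50 ± 0.20) and HADHA, a subunit of the enzyme complex of fatty acid oxidation (-0.47 ± 0.21), had the smallest p, followed by PDK4. Of 10 tested genes for PPAR and RXR receptors and their coregulators 5 lay above the sum, with a median of 0.01, led by the coactivator genes NCOA6 (0.40 ± 0.22), NCOA2 (0.33 ± 0.31) and NCOA1 (-0.18 ± 0.19). Of 27 p53 targets 14 lay above the sum, with a median departure of 0.004. Their median change was 0.39 with the combination and 0.31 as the sum. After DDB2 came the death-promoting gene PMAIP1 (-0.71 ± 0.26) and the repair gene XPC (-0.44 ± 0.20).

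Genes that bear on how cells take up, repair and survive platinum had list medians from -0.03 to 0.11. Of 13 transport genes 9 lay above the sum, with a median of 0.11, led by the copper chaperone gene ATOX1 (0.37 ± 0.20) and the efflux pump genes ABCC2 (-0.41 ± 0.22) and ABCC3 (0.17 ± 0.19). Of 34 crosslink repair genes 17 lay above and 17 below, with a median of -0.001. After DDB2 and XPC, described above, came RAD23B, a partner of XPC, at -0.66 ± 0.31. RAD23B was at -0.26 without the first combination array and -1.05 without the second. Of 29 genes of the apoptosis machinery 14 lay above the sum, with a median of -0.01. PMAIP1, below the sum as given above, had the smallest p, followed by the mitochondrial factors ENDOG (0.44 ± 0.25) and DIABLO (0.30 ± 0.18). Of 26 NRF2 and glutathione genes 8 lay above the sum, with a median of -0.03, and their departures, from -0.33 to 0.15, covered a narrower range than those of any other list of 20 or more genes. This median was below that of all genes in 18 of 18 alternative settings on the log2 scale, by 0.05 to 0.13. These settings are not independent checks. Dropping the intensity trend or blocking by replicate number leaves a median as it was. The deposited and median scalings give the same difference from all genes. The quinone reductase gene NQO1 was at -0.19 ± 0.13, the pentose phosphate gene PGD at -0.20 ± 0.14 and the glutathione synthesis gene GCLC at -0.28 ± 0.21.

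Of 43 mitosis genes 26 lay above the sum, with a median of 0.03. CDC20, an activator of the anaphase-promoting complex, was at 0.34 ± 0.15 while the cyclin gene CCNA2 was at -0.56 ± 0.25 and the mitotic kinase gene CDK1 at -0.47 ± 0.24. Of 45 DNA replication genes 28 lay above it, with a median of 0.04, led by the polymerase subunit gene POLD1 (0.66 ± 0.26), the helicase subunit gene MCM5 (0.44 ± 0.20) and the primase subunit gene PRIM1 (-0.40 ± 0.22). Of 17 sterol synthesis genes 10 lay above the sum, with a median of 0.08, and SREBF2, the master regulator gene of the pathway, was at -0.75 ± 0.30. The enzyme genes NSDHL (0.48 ± 0.24) and LSS (0.40 ± 0.22) lay above the sum by their brightest probe sets. A second tested probe set lay below it, at -0.27 for NSDHL and -0.72 for LSS. Of 11 fatty acid synthesis genes 4 lay above it, with a median of -0.12. The desaturase gene FADS2 had a departure of 0.82 with an SE of 0.68, the widest of any named gene, and was at -0.06 without the second rosiglitazone array and 1.71 without the first. The lipogenic factor genes MLXIPL (-0.53 ± 0.46) and SREBF1 (-0.22 ± 0.26) lay below the sum.

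Among inflammatory genes 7 of 21 NF-κB targets and chemokines lay above the sum, with a median of -0.07. The adhesion molecule gene ICAM1 (-1.10 ± 0.34) had the smallest p of this list and the chemokine genes CXCL5 (-0.97 ± 0.45) and CXCL8 (0.60 ± 0.32) followed. CXCL5 was at -0.35 without the first combination array and -1.59 without the second. CXCL8 was at 0.92 without the first carboplatin array and 0.29 without the second. Of 24 interferon response genes 10 lay above it, with a median of -0.04. B2M, the light chain of class I antigen presentation molecules, was at -0.42 ± 0.14 and the antiviral genes IFITM3 at -0.83 ± 0.32 and OAS3 at -0.30 ± 0.19. The medians of these 2 lists were below that of all genes in 18 of 18 alternative settings on the log2 scale, by 0.03 to 0.18 for NF-κB targets and by 0.01 to 0.15 for interferon response genes. Some of these settings cannot move a median, as said above. Of 26 immediate early genes 15 lay above the sum, with a median of 0.06, and the transcription factor genes KLF10, HES1 and ATF3 were at -0.72 ± 0.32, 0.61 ± 0.33 and 0.66 ± 0.35. KLF10 was at -0.34 without the first combination array and -1.10 without the second. Of 31 genes of the ATF4 and unfolded protein responses 16 lay above it, with a median of 0.002, and the stress factor gene DDIT3 (-0.67 ± 0.29) and the chaperone gene DNAJB9 (-0.62 ± 0.24) lay below, while SHMT2, a mitochondrial enzyme gene of serine metabolism, was at 0.38 ± 0.16.

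Glycolysis and hypoxia genes had 15 of 27 above the sum and a median of 0.01, with the oxygen sensor gene EGLN1 at -1.25 ± 0.35 (limma adjusted p = 0.82). The glycolytic enzyme genes ALDOA (0.39 ± 0.16) and GPI (0.28 ± 0.15) lay above the sum. Heat shock genes had 11 of 16 above and a median of 0.09, with the chaperone genes STIP1 at 0.38 ± 0.18, HSPB1 at 0.26 ± 0.13 and FKBP4 at -0.34 ± 0.20. Lung epithelial genes had 9 of 11 above and the highest median of any list with at least 5 tested genes, 0.20. FOXA2, which encodes a forkhead factor of the airway lining, led it at 0.89 ± 0.31 (interval 0.21 to 1.56), with a second probe set at 0.27. The surfactant gene SFTPC was at 0.78 ± 0.41 and the cadherin gene CDH1 at 0.52 ± 0.31. The median of this list stayed above that of all genes under each of 18 alternative settings on the log2 scale, from 0.13 to 0.29 higher. Here too some of the settings cannot move a median. With no filter on dim probe sets, 11 of 17 lung epithelial genes lay above the sum, with a median of 0.16.

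**Figure D5:**
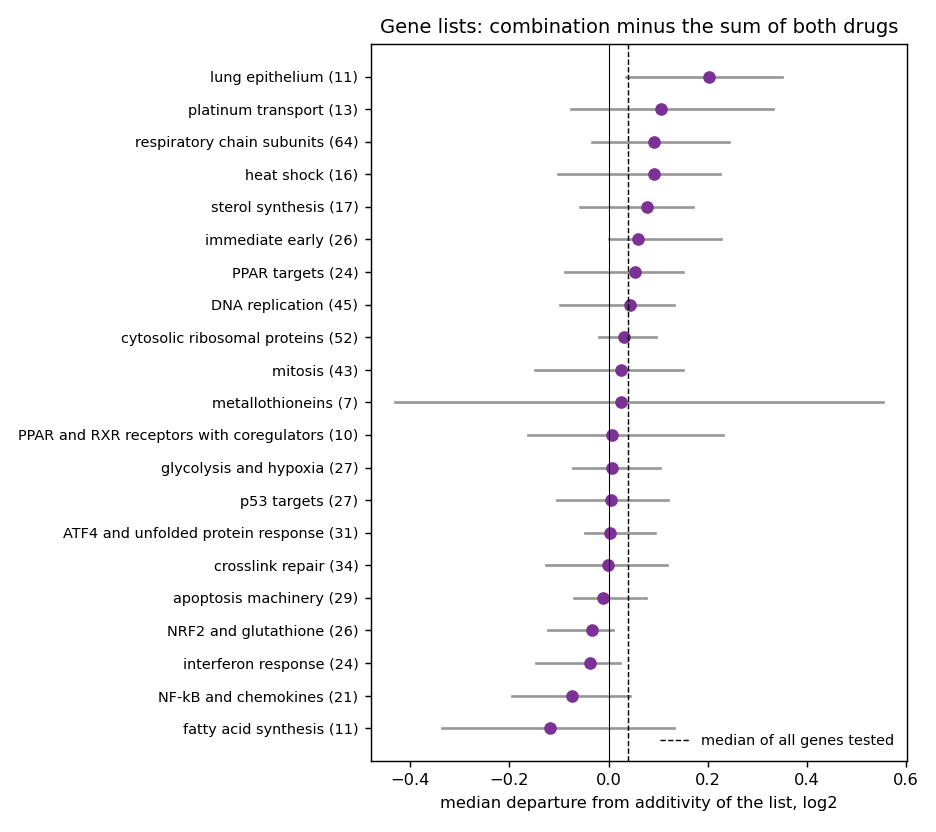
Median departure from additivity of each gene list (points, log2) with at least 5 tested genes, whose number stands in brackets, and the range of that median over the 16 choices of 1 array per group (lines). The dashed line is the median of all 8030 genes, 0.04, and it lies inside the range of every list shown except NRF2 and glutathione and interferon response, whose ranges end below it.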

How the data were processed

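RNA of 8 samples, copied with an oligo-dT primer and labelled with biotin per the labels' protocols, was read on Affymetrix human arrays. The authors deposited linear intensity values, with a single signal for each probe set. How these were scaled, and with which software, is not given in the sources used here. Signals were taken as log2(signal + 16), which understates changes of dim genes, and quantile normalized. Leaving out 68 control probe sets and those with a mean below the 40th percentile left 13338. Genes (8030) were represented by their brightest probe set with 1 symbol. Limma 3.58.1 in R 4.3.3 fitted 1 coefficient per group to all 8 arrays (4 residual and 7.1 prior degrees of freedom, intensity trend), two-sided, with Benjamini-Hochberg adjustment at 0.05. SE and 95% intervals are from that fit, and n = 2 arrays per group throughout. The fit was also run on simulated data with independent normal noise and added departures, and no statement here rests on the outcome.

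Named were the 8 genes of smallest p on each side of additivity, 10 genes by rosiglitazone main effect, 6 by carboplatin main effect, 3 per list and every metallothionein tested. Of the 6 carboplatin genes 3 were called, and the rest were added by smallest p. CIITA was named after its values were seen. Members, rules and lists were chosen with earlier results of these data known, and the ribosomal protein and respiratory chain lists were added after values were seen. Alternatives were other scalings, pseudocounts of 1 and 64, other filters, no trend, the replicate number as a block, array brightness as a covariate, unlogged signals and leaving out each array. Same-numbered arrays of the drug-treated groups correlated in their deviations from the group means at 0.08 to 0.253. Those of control against the drug-treated groups did so at -0.11 to -0.06. Whether the numbers mark shared runs was not tested, and they were not taken as pairs in the main fit.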

Additional observations from a re-analysis of the deposited data

How the results depend on the processing

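With 2 arrays per group a departure from additivity needs to be large to pass, and dim probe sets limit it further. The count of 0 called departures stayed 0 under 18 of 19 alternatives, the exception being the deposited scaling, where 3 passed, 3 below the sum and 0 above. That scaling moved the median departure of all genes from 0.04 to -0.07, and the split of departures at an unadjusted limma p below 0.05, which was 350 above and 446 below, was 57 above and 265 below. Unadjusted counts ran from 322 with the deposited scaling to 1106 without the second combination array. With the replicate number as a block, 0 departures passed (smallest adjusted p 0.416) and 834 had an unadjusted p below 0.05, against 796 without it. That block also left carboplatin against control with 0 calls and changed no other count of calls by over 1.5 times. The deviations of the control arrays ran against those of the same-numbered combination arrays (-0.11), so control numbers were also crossed, after seeing the data, which gave 0 departures, 80 calls for rosiglitazone and 47 for the combination against control. With control numbers crossed, 981 departures had an unadjusted limma p below 0.05.

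The rosiglitazone main effect, with 118 calls, had 64 calls when the deposited scaling was kept, 61 after median scaling, 71 with no filter and 36 with no intensity trend, and 70 to 91 leaving out 1 array. The carboplatin main effect, with 4 calls, had 1 with the deposited scaling, 2 with no filter and 2 with no intensity trend, and 2 to 4 leaving out 1 array. In the same order, rosiglitazone against control, with 48, had 24, 18, 6 and 6, 19 with the brightness covariate and 3 (without rosiglitazone array 2) to 49 leaving out 1 array. Carboplatin against control, with 2, had 0 in each of those 4 settings and 0 to 2 leaving out 1 array. The combination against control, with 30, had 16, 15, 12 and 5, 46 with the stricter filter and 9 (without combination array 2) to 31 leaving out 1 array. Leaving out 1 array never gave a called departure (0 to 0). The cause of these shifts was not tested. Of 92 named genes 76 kept the sign of their departure under all log2 alternatives in which they were tested. The other 16 changed sign in 56 of the 1637 gene values over all named genes. Some log2 alternatives, such as no intensity trend, cannot change a departure, so these values are not independent checks. On unlogged signals no departure passed either.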

Other observations

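Nuclear-encoded subunits of the mitochondrial respiratory chain, a list added after values were seen, lay above additivity in 44 of 64 tested genes (68.8%), against 55.2% of all genes. Their median departure was 0.09, and the median changes were -0.04 with the combination and -0.17 as the sum of the single drugs. None passed the threshold. The median stayed above that of all genes under 18 of 18 alternatives on the log2 scale, by 0.02 to 0.16, though some of these alternatives cannot move a median. The count above the sum was less steady. Of the 64 genes it was 37 with the brightness covariate, 35 with the deposited scaling and 49 with median scaling. The share of all genes above the sum in those settings is not given here. Cytosolic ribosomal protein genes, a bright family added in the same way, lay above it in 30 of 52 (57.7%) with a median of 0.03, and the range over alternatives relative to all genes was -0.03 to 0.01.

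On unlogged signals, where additivity means that signals and not fold changes add, DCBLD2 departed by -674 signal units and PCLAF by -977, both below the sum as on the log2 scale.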
